A study of Rattus norvegicus with 6 samples.

Results

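The genes described here are 33 genes of the cellular response to low oxygen and of glycolysis, chosen by gene symbol as known members of these pathways. The choice was made with earlier results of these data known, so shares called among the 33 genes are descriptions only. All 33 were found among the 17833 genes of the deposited table, and all 33 were among the 15150 genes tested. Expression was measured by bulk RNA-seq in the pulmonary veins (PVs) of wild-type Sprague-Dawley rats, 3 that underwent bilateral pulmonary vein banding (BPVB) and 3 that were sham operated. The labels place the surgery, done under cooling on ice, at postnatal day 1, whereas the methods allow for slightly later days as well, and the veins were dissected from the right upper lung lobe at postnatal day 21. The sham rats had the same anesthesia and opening and closing of the chest without constriction of the veins. Each library came from the vein tissue of a separate rat, and the libraries held between 23439506 and 29725808 fragments. Values are FPKM, that is, counted fragments scaled by gene length and by the library's total, so that levels of different genes in a library can be set side by side.

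Cells sense oxygen through prolyl hydroxylases of the EGLN family, which mark the HIF-α subunits HIF-1α and HIF-2α for capture by the VHL protein and for degradation. When oxygen is low, HIF-α escapes this control, pairs with ARNT and binds DNA at a short core motif near its target genes, many of which encode glucose transporters and glycolytic enzymes. HIF is regulated mainly at the protein level, so that the mRNA of its subunits does not measure its activity. Glycolysis turns glucose into pyruvate, which is either reduced to lactate or burned in mitochondria. The working myocardium that forms a sleeve around the PV of rodents relies largely on mitochondrial fuel use and carries its own isoenzymes of several glycolytic steps.

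Most of the glycolytic enzymes were lower in the BPVB group, whereas the genes of oxygen sensing and the hypoxia-induced genes moved in both directions. With an adjusted p under 0.05 (limma on log2(FPKM + 0.5), Benjamini-Hochberg adjustment over all 15150 genes), 22 of the 33 genes were called, 15 lower and 7 higher in the BPVB group. Of all genes tested, 31.5% were called, 14.3% lower and 17.2% higher, whereas the same shares among the 33 genes were 66.7%, 45.5% and 21.2%. The 33 genes are more highly expressed than most genes, with a median of 34.8 FPKM against 6.35 over all genes tested. Among genes with a mean of at least 10 FPKM, 22.8% were called lower and 22.2% higher, and of the 26 members above that level 14 were lower (53.8%) and 6 were higher (23.1%). None of the 33 genes passed the thresholds for differentially expressed genes (DEGs), which ask for an absolute log2 fold change above 1 besides the adjusted p in limma, where 3.27% of all genes did. No absolute log2 fold change among them reached 1, so that this count is 0 at any p. The log2 fold changes lay between -0.84 for Pfkfb3 and 0.54 for Slc16a3, with a median of -0.14 beside 0.02 over all genes. BPVB and sham values were without overlap for 24 of the 33 genes (72.7%), beside 45.6% of all genes tested.

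**Figure D1:**
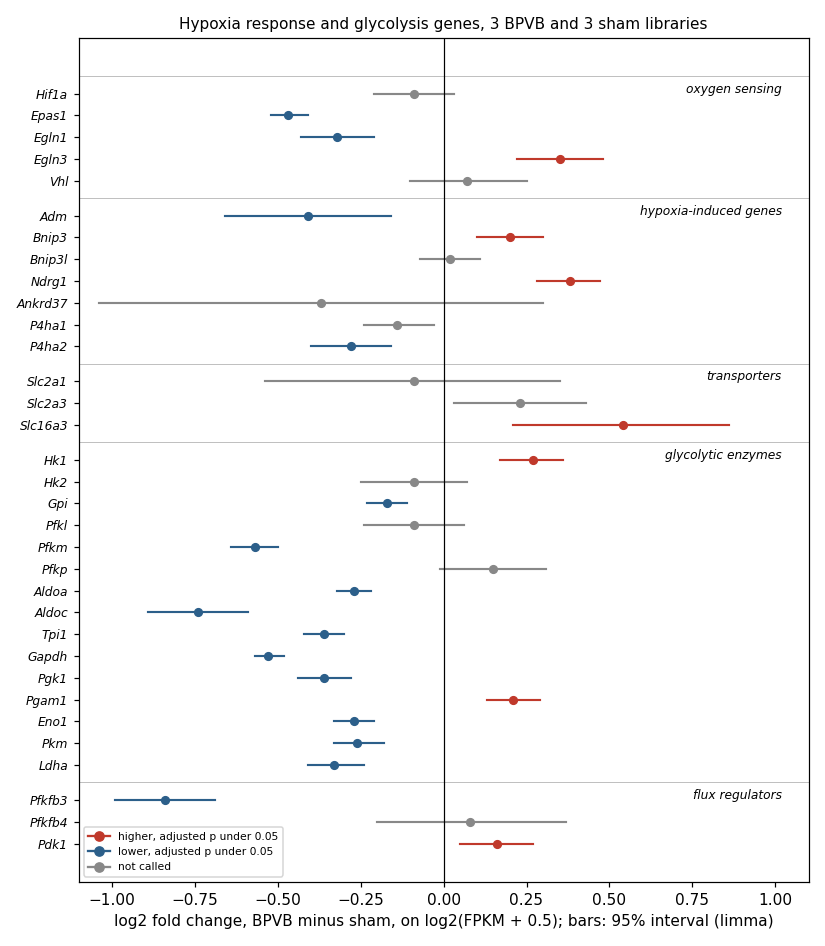
Log2 fold change of each of the 33 genes (x axis, BPVB minus sham, on log2(FPKM + 0.5)), ordered by role on the y axis, with bars for the 95% interval of limma, not adjusted for the number of genes, and with called rises in red, called falls in blue and other genes in grey. Of the 15 glycolytic enzymes, 10 lie to the left of 0 as called genes, and Hk1 and Pgam1 are called to the right.

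Other transcripts of the tissue moved as well. Of 12 markers of the myocardial sleeve, 9 were lower and 3 higher, and their summed level fell by 25.2%, with 16764 to 17205 FPKM in the BPVB libraries and 22594 to 23018 in the sham libraries. Smooth muscle markers summed to 3892 to 3941 and 4216 to 4295 FPKM (1 of 7 higher, 4 lower), and endothelial markers to 1060.1 to 1077 and 1207 to 1215 FPKM (6 of 8 lower), so that all 3 tissues of the PV wall were represented in every library. Alveolar epithelium, which is not part of a vein, was represented too, with 589.7 to 641 FPKM in the BPVB and 62.3 to 65.8 FPKM in the sham libraries (9 of 9 markers higher). Macrophage markers summed to 711 to 729.9 and 250 to 257 FPKM (8 of 8 listed markers higher), and proliferation markers to 41 to 41.8 and 15.3 to 17.7 FPKM (8 of 8 higher). Neuronal markers summed to 14.4 to 17.9 and 29.9 to 33.9 FPKM (5 of 7 lower), and Chrna3 among them was listed at 0 in all BPVB libraries. Erythroid markers summed to 12814 to 16576 and 15681 to 19406 FPKM, with overlapping groups and 2 of 7 genes lower. The part of these shifts in the results on the 33 genes was not tested, and in bulk tissue fewer cells of a type and less RNA per cell cannot be told apart.

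The upstream promoter sequence was examined because HIF and its partner ARNT bind the core letters ACGTG or GCGTG, so that sequence and expression can be read side by side. RefSeq (GRCr8) gave the sequence of the 250 bases before the gene start for 29 of the 33 genes, all but Bnip3l, Pgk1, Slc2a3 and Ndrg1. The motif, searched as ACGTG or GCGTG on both strands, was present in 19 of the 29 (65.5%). It was present in 54.0% of the 12200 tested genes with a promoter sequence and in 39.6% of all 27457 genes with one. A gene with several promoter sequences was counted if any of them held the motif. Among the 29 genes, the motif was present in 9 of 14 lower genes, 4 of 6 higher genes and 6 of 9 genes that were not called. The letters CACGTG hold 2 overlapping matches, 1 on each strand, and are also the E-box read by other factors. They were present in 5 of the 29 genes (17.2%), beside 8.03% of the tested genes with a promoter sequence. The sequences of 4 genes among the lower (Pfkfb3, Aldoc and Pfkm, the 3 with the largest falls, and Gapdh, the most abundant) and of 2 among the higher (Slc16a3 and Egln3, with the largest and the third largest rise) are shown 5′ to 3′ on the gene's strand, with the motif in capitals.
Pfkfb3 (chr17:71944683-71944932, + strand): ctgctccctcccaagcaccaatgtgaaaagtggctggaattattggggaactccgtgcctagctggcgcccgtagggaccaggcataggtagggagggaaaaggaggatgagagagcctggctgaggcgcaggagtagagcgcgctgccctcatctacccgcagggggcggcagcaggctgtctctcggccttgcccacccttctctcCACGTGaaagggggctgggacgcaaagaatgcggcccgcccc
Aldoc (chr10:63715294-63715543, + strand): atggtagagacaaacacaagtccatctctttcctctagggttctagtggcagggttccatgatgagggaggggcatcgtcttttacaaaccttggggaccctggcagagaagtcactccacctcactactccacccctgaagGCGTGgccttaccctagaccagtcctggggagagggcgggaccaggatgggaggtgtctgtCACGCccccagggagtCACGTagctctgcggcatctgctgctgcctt
Pfkm (chr7:131113849-131114098, + strand): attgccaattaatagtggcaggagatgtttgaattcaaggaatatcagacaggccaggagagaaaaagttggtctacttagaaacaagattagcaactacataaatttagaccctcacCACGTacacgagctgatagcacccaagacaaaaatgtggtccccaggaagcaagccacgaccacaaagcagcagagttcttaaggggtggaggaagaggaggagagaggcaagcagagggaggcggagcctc
Gapdh (chr4:159652468-159652717, - strand): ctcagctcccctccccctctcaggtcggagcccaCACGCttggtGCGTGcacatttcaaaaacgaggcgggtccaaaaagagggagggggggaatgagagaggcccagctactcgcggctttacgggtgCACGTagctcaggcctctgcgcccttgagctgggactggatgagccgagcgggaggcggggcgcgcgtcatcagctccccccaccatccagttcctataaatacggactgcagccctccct
Slc16a3 (chr10:106712078-106712327, + strand): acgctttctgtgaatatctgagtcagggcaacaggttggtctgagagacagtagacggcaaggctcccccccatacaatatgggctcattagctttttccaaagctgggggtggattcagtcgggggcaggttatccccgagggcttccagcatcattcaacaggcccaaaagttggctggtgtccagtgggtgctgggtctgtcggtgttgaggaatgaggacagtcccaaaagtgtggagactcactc
Egln3 (chr6:77411016-77411265, - strand): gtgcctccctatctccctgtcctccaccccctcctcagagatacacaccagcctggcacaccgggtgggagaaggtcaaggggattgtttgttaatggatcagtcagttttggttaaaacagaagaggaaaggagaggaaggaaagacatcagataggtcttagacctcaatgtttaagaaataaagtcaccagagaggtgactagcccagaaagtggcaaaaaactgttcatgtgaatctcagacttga
The 4 promoters of lower genes held between 1 and 3 matches, and those of Slc16a3 and Egln3 held 0 in this window. The genes shown are not typical in this. Slc16a3 and Egln3 were the only ones of the 6 higher genes without a match. The lower genes Adm, Epas1, Gpi, Pkm and Tpi1, which are not shown, had no match either. In Pfkfb3, the 2 matches were a single CACGTG that began 42 bases before the gene start. Presence of the letters is a description of the sequence and does not show binding.

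Among the genes of oxygen sensing, the α subunit Epas1 and the hydroxylase Egln1 were lower in the BPVB group, the hydroxylase Egln3 was higher, and Hif1a and Vhl were not called. Epas1 (NCBI Gene 29452), which encodes HIF-2α and is most abundant in endothelium, was the highest of the 5 genes, at 165, 167 and 164 FPKM in the BPVB libraries and 225, 232 and 229 FPKM in the sham libraries. All BPVB values lay below all sham values, and the mean fell by 27.7%, with a log2 fold change of -0.47 (SE 0.025, adjusted p = 2.3e-06, limma). The log2 fold changes of the 8 endothelial markers lay between -0.52 for Emcn and -0.03 for Vwf, with a median of -0.17. In these libraries only Emcn among them fell further than Epas1, and the part of the markers in the fall of Epas1 was not tested. Hif1a, which encodes the widely expressed HIF-1α, was at 34, 34.7 and 32.4 FPKM in the BPVB group and 37.7, 33.6 and 36.5 FPKM in the sham group. These ranges overlapped, and the 95% interval of its log2 fold change was -0.21 to 0.03 (adjusted p = 0.23, limma).

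Egln1, the main oxygen sensor that hydroxylates HIF-α, was measured at 22.1, 21.6 and 23.1 FPKM after banding and 27.3, 27.6 and 28.8 FPKM after sham surgery. The groups did not overlap, and the log2 fold change was -0.32 ± 0.047 (SE, adjusted p = 9.1e-04, limma). Egln3, a hydroxylase that HIF itself induces, took the opposite course, with 24.8, 21.9 and 23.8 FPKM in the BPVB group and 18.5, 17.6 and 18.7 FPKM in the sham group. Every BPVB library exceeded every sham library in Egln3 (log2 fold change 0.35, SE 0.058, adjusted p = 0.0019, limma). The share of Egln3 in the summed FPKM of Egln1, Egln2 and Egln3 was 34.9% ± 1.3 after BPVB and 28.4% ± 0.22 after sham surgery (SD, n = 3 each). Vhl, the substrate receptor of the ubiquitin ligase for HIF-α, ranged from 14.5 to 17.6 FPKM over the 6 libraries, and its interval was -0.10 to 0.25 on the log2 scale.

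The hypoxia-induced genes outside glycolysis were split, with 2 of 7 higher, 2 lower and 3 not called. The shares over all genes tested were 17.2% higher and 14.3% lower. Ndrg1, a stress-responsive gene that rises in many hypoxic cells, was at 41.6, 43.6 and 42.2 FPKM in the BPVB libraries and 33.6, 32.4 and 31.8 FPKM in the sham libraries. The lowest BPVB value exceeded the highest sham value, with a log2 fold change of 0.38 (SE 0.041, adjusted p = 1.5e-04, limma). Bnip3, which encodes a receptor for the removal of mitochondria by autophagy, was the most abundant of the 7 genes, with 111, 112 and 103 FPKM against 98.5, 91.6 and 93.6 FPKM. It was higher by 14.8% (log2 fold change 0.20, adjusted p = 0.0083, limma), whereas its relative Bnip3l, with a related function, was not called and had an interval of -0.07 to 0.11.

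Adm, which encodes the vasodilator peptide adrenomedullin, was at 6.94, 8.93 and 7.47 FPKM in the BPVB group and 9.95, 9.69 and 11.8 FPKM in the sham group. All 3 BPVB values were below the sham values, and the log2 fold change was -0.41 (SE 0.11, adjusted p = 0.019, limma). This call was lost without BPVB replicate 1 (adjusted p = 0.063), without BPVB replicate 3 (0.061) and without sham replicate 3 (0.066) in limma. P4ha2, a subunit of the collagen prolyl 4-hydroxylase, fell by 18.2% (log2 fold change -0.28, adjusted p = 0.0035, limma), and its more abundant relative P4ha1 had a log2 fold change of -0.14 that was not called (adjusted p = 0.06, limma), although its groups did not overlap. P4ha1 did pass the threshold in other settings, with an adjusted p of 0.026 after median-of-ratios scaling and 0.011 without BPVB replicate 1 (limma). Ankrd37, an ankyrin-repeat gene induced by HIF, had as few as 17 fragments in a library, and its interval of -1.04 to 0.30 leaves room for changes in either direction. The other 32 genes had at least 94 fragments in every library.

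The 3 transporters of glucose and lactate had means under 10 FPKM. Slc16a3, which encodes the lactate exporter MCT4, was at 2.31, 2.03 and 3.07 FPKM in the BPVB libraries and 1.58, 1.52 and 1.48 FPKM in the sham libraries. The groups did not overlap, and BPVB replicate 3 was the highest. The log2 fold change of 0.54 (SE 0.14, adjusted p = 0.02, limma) was the largest rise among the 33 genes, and on FPKM itself the mean was 1.62 times that of the sham group. The call was lost without BPVB replicate 3 (adjusted p = 0.057), sham replicate 2 (0.053) or sham replicate 3 (0.058) and after quantile normalization (0.051), all in limma.

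Slc2a3, the gene of the high-affinity glucose transporter GLUT3, was at 8.25, 9.13 and 8.98 FPKM against 7.87, 7.82 and 6.58 FPKM. Its groups did not overlap, and its adjusted p of 0.074 (limma) missed the threshold. Slc2a1, the gene of the basal transporter GLUT1 and a classical HIF target, ranged from 1.73 to 3.32 FPKM over the 6 libraries. Its interval of -0.54 to 0.35 leaves room for changes in either direction. The insulin-regulated transporter of muscle and fat, Slc2a4 (GLUT4), is not among the 33 genes but was the most abundant glucose transporter considered, and it was lower, at 41.6, 43.7 and 43.3 FPKM against 78.4, 86.1 and 81.6 FPKM (log2 fold change -0.93, SE 0.043, adjusted p = 9.8e-07, limma).

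Of the 15 glycolytic enzyme genes, 10 were lower, 2 were higher and 3 were not called. Over all genes tested, 14.3% were lower and 17.2% higher, and of those with a mean of at least 10 FPKM 22.8% and 22.2%. Their summed level was 2979, 2964 and 2939 FPKM in the 3 BPVB libraries and 3762, 3744 and 3752 FPKM in the 3 sham libraries, so that it fell by 21.1%. The median log2 fold change of the 15 genes was -0.27. The lower genes included all those with a mean above that of Pgam1, which was itself higher. In the same libraries the summed myocardial sleeve markers fell by 25.2%, and their part in the fall of the enzymes was not tested.

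**Figure D2:**
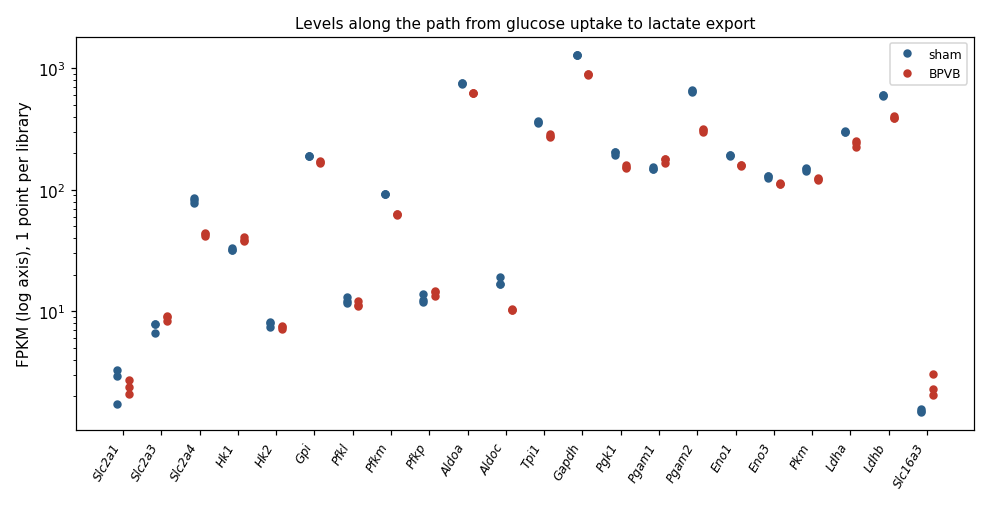
FPKM in each library (y axis, log scale) of the genes from glucose uptake to lactate export (x axis), with sham libraries in blue and BPVB libraries in red. Slc2a4, Pfkm, Aldoa, Tpi1, Gapdh, Pgk1, Pgam2, Ldha and Ldhb are lower in every BPVB library, and Hk1, Pgam1 and Slc16a3 are higher.

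In the upper part of the pathway, where glucose is phosphorylated and split, 4 of 8 genes were lower, 1 was higher and 3 were not called. Hk1, the hexokinase bound to mitochondria in most tissues, rose from 31.8, 33.2 and 32 FPKM in the sham libraries to 40.6, 38.5 and 37.9 FPKM in the BPVB libraries (log2 fold change 0.27, SE 0.043, adjusted p = 0.0016, limma). Hk2, the hexokinase of muscle and fat that HIF can induce, was less abundant and was not called (interval -0.25 to 0.07). Gpi, which converts glucose 6-phosphate to fructose 6-phosphate, fell by 11.1% (log2 fold change -0.17, adjusted p = 9.2e-04, limma), and lost its call after quantile normalization (log2 fold change -0.07, adjusted p = 0.061, limma).

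Pfkm, the muscle form of phosphofructokinase, the main control point of the pathway, was at 61.7, 62.7 and 62.8 FPKM in the BPVB group and 93.1, 92.6 and 92.6 FPKM in the sham group. The mean fell by 32.8%, and the groups were farther apart than the libraries within either group (log2 fold change -0.57, SE 0.029, adjusted p = 1.7e-06, limma). The liver form Pfkl and the platelet form Pfkp were not called, with log2 fold changes of -0.09 and 0.15. Aldoa, the aldolase of muscle and most other tissues, fell by 17.2% (log2 fold change -0.27, adjusted p = 2.0e-05, limma). Aldoc, the aldolase typical of brain, was at 10.3, 10.2 and 10.5 FPKM after banding and 16.9, 19.1 and 16.9 FPKM after sham surgery. Its log2 fold change of -0.74 (SE 0.064, adjusted p = 4.0e-05, limma) was the largest fall among the enzymes, at a level far under that of Aldoa.

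From the triose phosphates to lactate, where glycolysis yields its ATP, 6 of 7 genes fell. Gapdh (NCBI Gene 24383), whose product oxidizes glyceraldehyde 3-phosphate, was the most abundant of the 33 genes, with 901, 884 and 893 FPKM in the BPVB libraries and 1293, 1278 and 1284 FPKM in the sham libraries. The values within a group differed by little, and the mean fell by 30.5%, a log2 fold change of -0.53 (SE 0.019, adjusted p = 2.6e-07, limma). Gapdh has many processed pseudogenes in rodents, and how reads that match several copies were counted is not given in the sources used here. The value of Gapdh ranged from -0.55 to -0.49 over all 16 alternative settings.

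Tpi1, which interconverts the triose phosphates, was at 274, 286 and 279 FPKM against 362, 351 and 365 FPKM in the sham group. Pgk1, the ATP-forming phosphoglycerate kinase, was at 151, 159.6 and 155 FPKM against 192, 204 and 204 FPKM. Both had a log2 fold change of -0.36 with no overlap between the groups (adjusted p = 1.8e-05 for Tpi1 and 7.5e-05 for Pgk1, limma). Eno1, the ubiquitous enolase, and Pkm, the pyruvate kinase of muscle and most other tissues, had log2 fold changes of -0.27 and -0.26 (adjusted p = 9.1e-05 and 4.4e-04, limma).

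Ldha, which favors the formation of lactate from pyruvate, was at 252, 244 and 226 FPKM in the BPVB libraries and 301, 304 and 299 FPKM in the sham libraries. The groups did not overlap (log2 fold change -0.33, SE 0.038, adjusted p = 2.5e-04, limma). Pgam1, the non-muscle phosphoglycerate mutase, rose by 15.8%, to 178, 178 and 167 FPKM from 148, 149 and 155 FPKM (log2 fold change 0.21, adjusted p = 0.0018, limma). Its muscle counterpart Pgam2, which is not among the 33 genes, was at 296, 318 and 311 FPKM against 642, 653 and 657 FPKM and was the only other glycolysis gene tested that passed the DEG thresholds (log2 fold change -1.08, SE 0.03, adjusted p = 5.0e-08, limma). Summed over both genes, the mutase transcripts were at 474, 496 and 478 FPKM in the BPVB libraries and 790.4, 802 and 812 FPKM in the sham libraries.

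**Figure D3:**
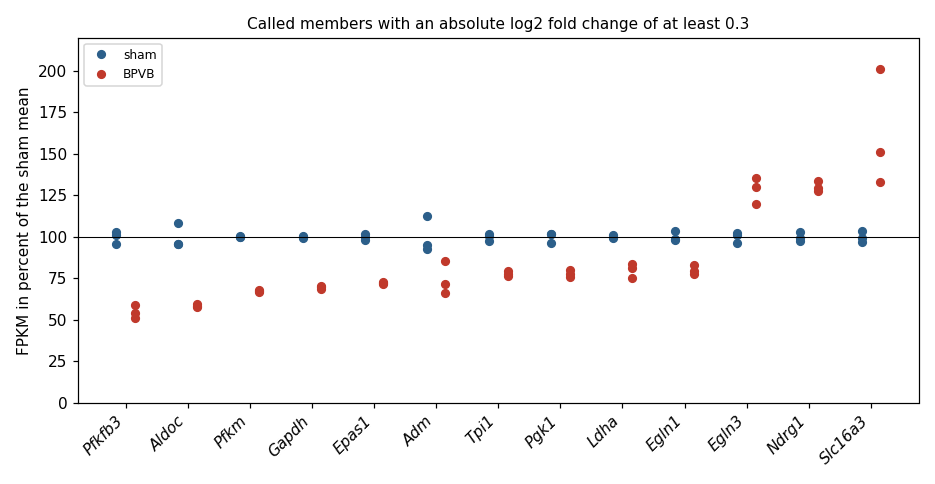
FPKM of each library as a percentage of the sham mean (y axis) for the 13 called genes with an absolute log2 fold change of at least 0.3 (x axis, ordered by fold change), sham in blue and BPVB in red. The 10 genes from Pfkfb3 to Egln1 lie below the sham points, and Egln3, Ndrg1 and Slc16a3 lie above them, with Adm and Slc16a3 the most scattered.

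Of the 3 regulators of flux, Pfkfb3 showed the largest fall of the 33 genes. Pfkfb3, which makes fructose 2,6-bisphosphate, the strongest activator of phosphofructokinase, was at 10.8, 10.2 and 11.8 FPKM in the BPVB libraries and 20.2, 20.6 and 19.1 FPKM in the sham libraries. Its mean fell by 45.3%, with no overlap (log2 fold change -0.84, SE 0.066, adjusted p = 2.3e-05, limma). Pfkfb4, the gene of a related enzyme, was at about 1 FPKM and was not called (interval -0.20 to 0.37). Pdk1, a kinase that inhibits pyruvate dehydrogenase in mitochondria and is induced by HIF, was at 19.7, 19.5 and 18.6 FPKM against 17.1, 17.4 and 16.9 FPKM. The log2 fold change of Pdk1 was only 0.16 (SE 0.049, adjusted p = 0.034, limma), and the call was lost in 8 of 16 alternative settings, where the highest adjusted p was 0.1. These included median-of-ratios scaling (0.059), the replicate block (0.059) and every fit with a library left out other than the fit without BPVB replicate 3.

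Isoenzyme shares were computed because the forms of a step differ between tissues, and because a share within a library does not depend on how libraries are scaled to each other. For all 9 shares the BPVB and sham libraries lay apart (p = 0.1 for each share in a two-sided exact permutation test, also after Benjamini-Hochberg adjustment over the 9 shares, and 0.1 is the smallest p that 3 rats against 3 allow). In phosphofructokinase, Pfkm made up 70.9% ± 0.15 after BPVB and 78.8% ± 0.76 after sham surgery (SD, n = 3 each). The share of Pfkl was 13% ± 0.71 after BPVB and 10.4% ± 0.51 after sham surgery (SD, n = 3 each). The share of Pfkp was 16.1% ± 0.64 after BPVB and 10.8% ± 0.72 after sham surgery (SD, n = 3 each). Pfkl and Pfkp themselves were not called, and Pfkm in the sum was lower. The muscle form remained the main form in both groups. In lactate dehydrogenase, Ldha made up 37.8% ± 1.3 after BPVB and 33.7% ± 0.2 after sham surgery (SD, n = 3 each), although Ldha itself was lower. Ldhb, the form of heart muscle, fell to 391, 404 and 390.2 FPKM from 599.9, 597 and 586 FPKM (log2 fold change -0.59, adjusted p = 4.9e-07, limma).

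Of the hexokinases Hk1 and Hk2, Hk2 made up 15.9% ± 0.26 after BPVB and 19.5% ± 1 after sham surgery (SD, n = 3 each). Of the glucose transporters Slc2a1, Slc2a3 and Slc2a4, Slc2a1 made up 4.42% ± 0.48 after BPVB and 2.87% ± 0.82 after sham surgery (SD, n = 3 each). Slc2a1 itself was not called, with means of 2.39 FPKM after BPVB and 2.65 FPKM after sham surgery, and Slc2a4 in the sum was lower. Of the aldolases Aldoa and Aldoc, Aldoc made up 1.63% ± 0.02 after BPVB and 2.29% ± 0.15 after sham surgery (SD, n = 3 each). The largest shift was in the pyruvate dehydrogenase kinases, which inhibit the conversion of pyruvate to acetyl-CoA in mitochondria. Pdk4, which is not among the 33 genes, made up 56.6% ± 1 after BPVB and 24.0% ± 1.1 after sham surgery (SD, n = 3 each), so that the form most abundant in the BPVB libraries differed from that in the sham libraries, where Pdk2 was at 94.8 FPKM and Pdk4 at 35.8 FPKM.

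**Figure D4:**
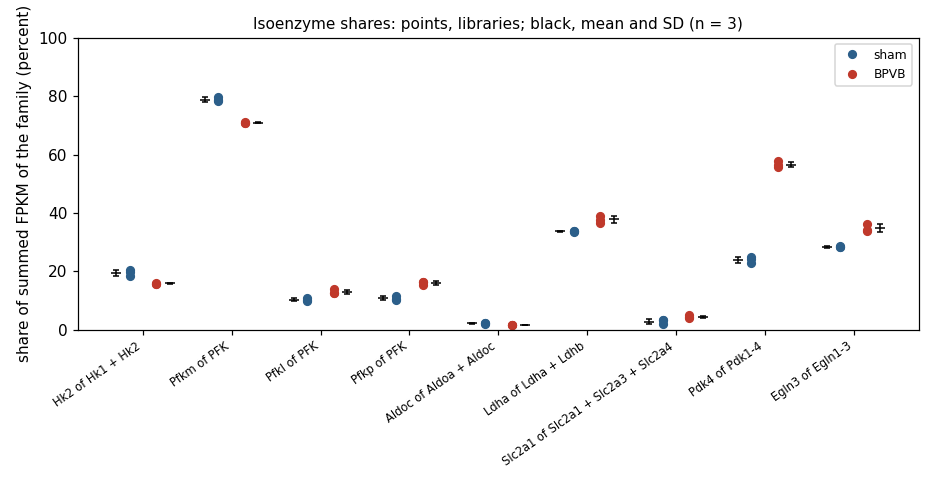
Share of summed FPKM held by the gene named in each family (y axis, percent), with sham libraries in blue, BPVB libraries in red, and the mean and SD (n = 3) in black. The 2 groups are apart in all 9 shares, most widely for Pdk4, which made up 56.6% of the 4 kinases in the BPVB group and 24.0% in the sham group.

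Other genes of the same pathways were examined beside the 33 genes. Their counts stand beside 17.2% called higher and 14.3% called lower over all genes tested. Of 45 other hypoxia genes, 43 were tested, and 16 were higher, 15 lower and 12 not called, with a median log2 fold change of 0.07. Of these, 4 passed the DEG thresholds. Angptl4, which encodes an inhibitor of lipoprotein lipase and is a target of PPAR receptors as well as of HIF, was at 36.1, 36 and 32.2 FPKM in the BPVB libraries and 2.69, 1.77 and 2.24 FPKM in the sham libraries. Hmox1, the gene of heme oxygenase 1, was at 19.7, 18.8 and 15.9 FPKM against 4.08, 4.26 and 3.8 FPKM (log2 fold change 2.03, SE 0.091, adjusted p = 7.7e-07, limma). Both were higher in every BPVB library, and the log2 fold change of Angptl4 was 3.70 (SE 0.12, adjusted p = 1.1e-07, limma).

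On the other side, Bhlhe40, a transcriptional repressor linked to the circadian clock and to hypoxia, was at 12.1, 12.3 and 11.6 FPKM in the BPVB group and 28, 26.4 and 29.5 FPKM in the sham group (log2 fold change -1.19, adjusted p = 1.2e-06, limma). Tfrc, the transferrin receptor for iron uptake, was at 5.54, 5.04 and 5.85 FPKM against 10.9, 12.3 and 11.6 FPKM (-1.02, adjusted p = 2.4e-05, limma). Of the best-known targets of HIF, Vegfa, which encodes the main angiogenic growth factor, rose by 0.34 on the log2 scale (adjusted p = 3.1e-04, limma). Ca9, a carbonic anhydrase that is nearly silent in normal oxygen, was at 0.886, 0.851 and 0.471 FPKM in the BPVB libraries and 0.142, 0.144 and 0.101 FPKM in the sham libraries, with as few as 5 fragments in a library. The ratio of its means was 5.7, whereas its log2 fold change with the pseudocount of 0.5 was 0.96 (adjusted p = 0.0028, limma). The matrix cross-linking enzyme Lox (0.99) and the mTORC1 inhibitor Ddit4 (0.59) also rose (adjusted p = 3.8e-07 and 1.7e-05, limma). Other targets of HIF fell, among them the chemokine receptor gene Cxcr4 (-0.88), the mitochondrial adenylate kinase gene Ak4 (-0.80) and Higd1a (-0.54), which encodes a mitochondrial protein of the hypoxia response (adjusted p = 3.8e-05, 3.6e-04 and 5.9e-04, limma). The further negative regulators of HIF, Hif1an, the hydroxylase that blocks its transactivation, and Egln2, were higher, by 0.49 and 0.24 (adjusted p = 0.011 and 0.019, limma). The Egln2 call was lost without BPVB replicate 3 (adjusted p = 0.064, limma) and without sham replicate 2 (0.065).

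Of 22 other glycolysis genes, 21 were found in the table and 18 were tested, of which 7 were lower, 1 was higher and 10 were not called, with a median log2 fold change of -0.15. Pgam2 and Slc2a4, both described above and both typical of striated muscle, fell the most. The higher gene was Hk3, a hexokinase of leukocytes, at 0.509, 0.396 and 0.25 FPKM in the BPVB libraries and 0.122, 0 and 0.0407 FPKM in the sham libraries (log2 fold change 0.67, adjusted p = 0.015, limma). It rests on few fragments, and its adjusted p was 0.053 without BPVB replicate 1 and 0.054 without sham replicate 2 (limma). Macrophage markers were higher in the same libraries, as given above, and their part in this rise was not tested.

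Of 14 genes that decide the fate of pyruvate, 8 were lower, 2 were higher and 4 were not called, with a median log2 fold change of -0.21. Pdk4 was the only DEG of the 14, at 141, 137 and 131 FPKM in the BPVB libraries and 35.2, 38.2 and 33.9 FPKM in the sham libraries (log2 fold change 1.92, SE 0.049, adjusted p = 2.9e-08, limma). The citrate synthase gene Cs was higher, at 126, 122 and 127 FPKM against 114, 112 and 118 FPKM (log2 fold change 0.13, adjusted p = 0.016, limma), a call that was lost without BPVB replicate 3 (adjusted p = 0.055, limma) and without sham replicate 2 (0.059). Mpc1, a subunit of the carrier that brings pyruvate into mitochondria, was at 187, 212 and 207 FPKM in the BPVB group and 296, 291 and 303 FPKM in the sham group. Pc, which carboxylates pyruvate to oxaloacetate, was at 4.26, 4.14 and 3.86 FPKM against 6.43, 6.63 and 5.56 FPKM. Both were lower in every BPVB library, each with a log2 fold change of -0.55 (adjusted p = 2.8e-05 and 0.0022, limma). Of 6 gluconeogenesis genes, only Pck1 was called, the gene of a phosphoenolpyruvate carboxykinase that also serves glyceroneogenesis in fat. It was at 11.7, 9.91 and 9.15 FPKM in the BPVB group and 2.7, 2.2 and 2.45 FPKM in the sham group (log2 fold change 1.86, SE 0.11, adjusted p = 4.2e-06, limma).

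**Figure D5:**
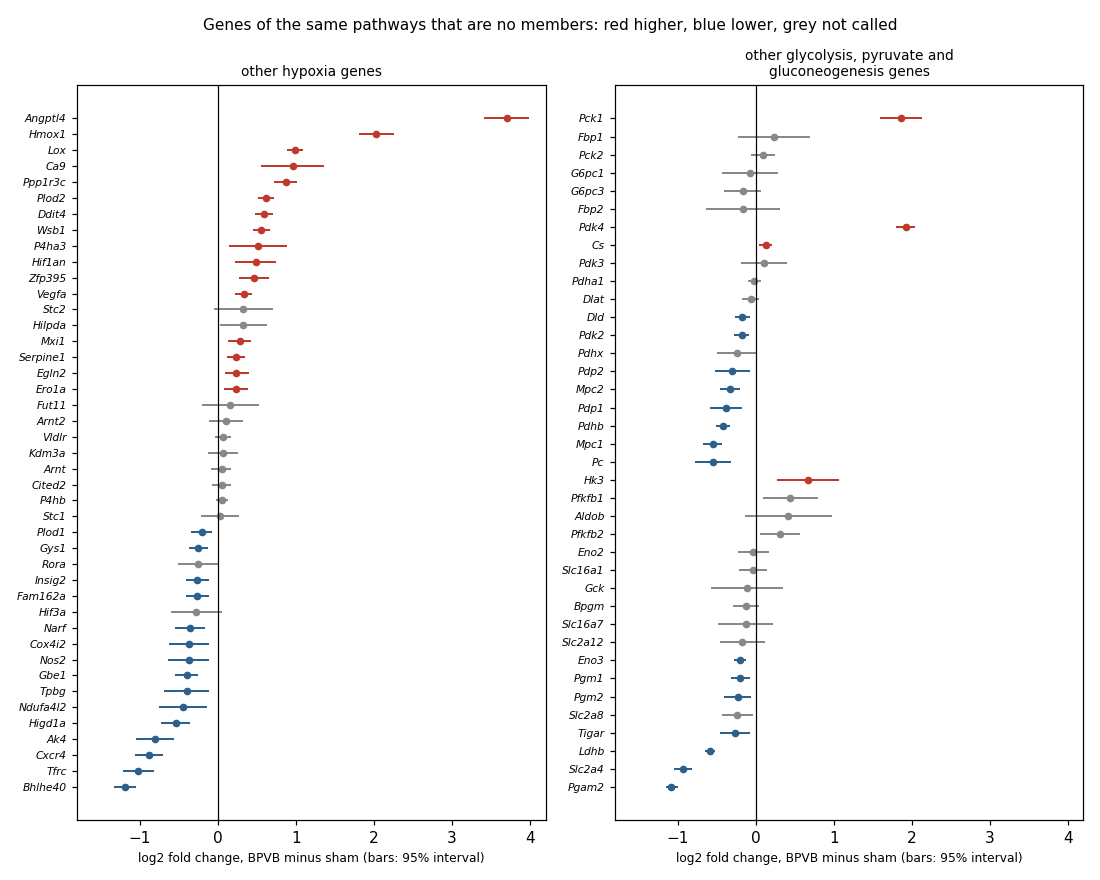
Log2 fold change (x axis, BPVB minus sham, with the 95% interval of limma) of the tested genes of the same pathways that are not among the 33, other hypoxia genes on the left and genes of glycolysis, pyruvate use and gluconeogenesis on the right, with called rises in red and called falls in blue. Rises and falls are mixed among the hypoxia genes, with Angptl4 and Hmox1 farthest to the right, and Pdk4 and Pck1 stand apart on the right of a panel in which most called genes are lower.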

How the data were processed

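RNA was sequenced from pulmonary vein tissue of 3 BPVB and 3 sham rats, and the 6 libraries were grouped by their treatment labels. The authors deposited FPKM values per gene in 1 table of 17833 genes, and no other column of per-sample values was present (0 unused). The authors name fastp, HISAT, HTSeq-count and DESeq2 in their methods. For the deposited file, the submitters' processing notes list HISAT2 2.0.5, featureCounts 1.5.0-p3, StringTie 1.3.3b and DESeq2 1.20.0, and the labels and the methods name different library kits. The genome build, the annotation and the use of strand are not given in the sources used here, so reads of genes with near-identical copies or antisense partners may be split or mixed. Each column's FPKM values were whole multiples of 1 fragment per gene length for 100% of genes (relative tolerance 1e-10), which gave fragment totals of 26686151, 26078189 and 29725808 for the BPVB and 23774306, 23439506 and 23821184 for the sham libraries. A count test was not the main test because the values are FPKM, and the recovered fragments were tested with limma-voom as an alternative.

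Genes with a mean of at least 0.1 FPKM (15150) were tested on log2(FPKM + 0.5) with limma 3.58.1 (R 4.3.3, empirical Bayes with trend, two-sided) and Benjamini-Hochberg adjustment over all genes tested. Fold changes on this scale understate the change of genes at low FPKM. A gene was called at an adjusted p under 0.05, and DEGs also needed an absolute log2 fold change above 1. Shares of isoenzymes were compared with exact permutation tests (Python 3.11.15, scipy 1.17.1, numpy 2.4.6, pandas 2.3.3), and plots were drawn with matplotlib 3.10.9. The procedure was tested on simulated data.

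The 33 genes, the 4 lists of other pathway genes and the 8 marker lists were chosen with earlier results of these data known. Values in every library are given for called members with an absolute log2 fold change of at least 0.3, for the most abundant member of each of 5 roles, and for pathway genes that were DEGs or among the 2 largest called rises or falls of their list. Hk1, Pgam1, Slc2a3, Hif1a, Ldhb, Vegfa, Lox, Ca9, Ddit4, Hif1an, Egln2, Cxcr4, Ak4, Higd1a, Pdk2, Chrna3, Emcn and Vwf were singled out after their values were seen. Promoter sequences are those of RefSeq for GRCr8. Alternatives were other pseudocounts, filters, scalings, the replicate number as a block, robust empirical Bayes, limma-voom and leaving out each library.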

Additional observations from a re-analysis of the deposited data

How the results depend on the processing

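Across the 16 alternatives, the number of the 33 genes called higher lay between 5 and 8 (7 as reported), the number called lower between 14 and 16 (15 as reported), and none was a DEG in any of them by limma. Of the 22 called genes, 18 kept their direction and call in every alternative, and the exceptions were Adm, Slc16a3, Gpi and Pdk1. No alternative reversed a called fold change of the 33 genes. P4ha1, Slc2a3 and Pfkp, not called as reported, were called in some alternatives, Pfkp with limma-voom. The median log2 fold change of the 33 genes, -0.14 as reported, was -0.16 with median-of-ratios scaling and -0.10 after rescaling to TPM, and lay between -0.18 and -0.11 with 1 library left out. The number of other glycolysis genes called higher, 1 as reported, was 2 with a pseudocount of 1, a pseudocount of 0.1, no filter or robust empirical Bayes and 3 with TPM or limma-voom, and lay between 0 and 2 with 1 library left out. The cause was not tested. The number of other glycolysis genes called lower, 7 as reported, lay between 5 and 8 over the alternatives. For the other hypoxia genes, the number called higher, 16 as reported, lay between 13 and 17. The number called lower, 15 as reported, lay between 11 and 16. Over all genes, the number of DEGs was 496 as reported, 325 with a pseudocount of 1, 901 with a pseudocount of 0.1 and 1122 with limma-voom on recovered fragments. With 3 rats a group, exact tests of single values cannot fall below p = 0.1, and Ankrd37, Ca9 and Hk3 rest on few fragments. Counting limits cover counting error only.

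No pairing of the samples by replicate number is stated in the sources used here, and the main test did not pair them. Correlations of same-numbered libraries' deviations from their group means were 0.025, 0.014 and 0.015, all under 0.1, although every library correlated best with its own number, a hint from the data and not from the design. With the replicate block, 6 of the 33 genes were higher and 15 lower, and over all genes 4539 were called against 4775 without it.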
